A study of Mus musculus with 8 samples.

Results

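Transcripts of 10 growth-response transcription factors were compared across 3 cloned lines of mouse fibroblasts. They are the AP-1 genes Fos, Fosb, Fosl1, Fosl2, Jun, Junb and Jund, their relative Atf3, and the genes Egr1 and Myc. The members were chosen by name: a row of the deposited table counted where its RefSeq transcript belongs to a member gene, and rows with identical values counted once. All 10 genes were found among the 15653 genes that could be named, each by 1 row of its own values.

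The study looked for genes that follow the pattern of self-renewal in p53-null fetal fibroblasts, with Ind-8 cells (the ASYM state, 3 arrays), whose p53 cDNA is switched on by zinc through a modified human metallothionein promoter and which then divide into a cycling and an arrested daughter, and Con-3 cells (SYM, 3 arrays), which have no p53 cDNA, divide symmetrically and carry the empty vector by the paper but are the congenic parent of Ind-8 by the labels. The tI-3 cells (p53SYM, 2 arrays) derive from Ind-8 and induce p53 but divide symmetrically, and also express a constitutive cDNA of IMPDH II, a rate-limiting enzyme of guanine nucleotide synthesis. Every culture was kept in DMEM with dialyzed fetal bovine serum and puromycin at 5 µg/ml, received 65 µM ZnCl2 for 48 h and was harvested with trypsin, and the tI-3 medium held G418 as well, at 1 µg/ml by the labels and in mg/ml by the paper. Each state is 1 cloned line, so state and line cannot be told apart, and the replicates are independent preparations of that line.

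AP-1 is a family of dimers in which a FOS protein pairs with a JUN protein, or JUN and ATF proteins pair among themselves, on short palindromic DNA sites. FOS, FOSB, JUN, JUNB, ATF3 and EGR1 are immediate-early factors: serum, growth factors or stress raise their transcripts within minutes through the ERK, JNK and p38 kinases and the factor SRF, and the transcripts decay quickly. FOSL1 and FOSL2 follow later and last longer in growing fibroblasts. MYC pairs with MAX and drives genes for ribosome, nucleotide and polyamine synthesis, and its level falls in many cells that leave the cell cycle.

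All values are log2 intensities, on which a difference of 1 is a 2-fold change. A difference between lines was called where the adjusted p of limma, over 22523 probe sets, was under 0.05. The A comparison is Ind-8 minus Con-3, the B comparison Ind-8 minus tI-3, and the C comparison tI-3 minus Con-3. Any pair of these shares the arrays of a line, and B is also the test of whether the changes from Con-3 differ between Ind-8 and tI-3. The number of arrays limits the precision, most of all for tI-3.

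The arrays were alike in their medians, from 6.12 to 6.19, but not at the dim end or in their control probe sets. The 25th percentile was 4.38 on Con-3 replicate 3 and 4.39 and 4.43 on the tI-3 arrays, against 4.19 to 4.27 on the other 5. The 14 hybridization controls, which read transcripts added to each sample, had mean values of 9.04, 8.98 and 9.03 on the Ind-8 arrays and of 9.05 and 9.16 on Con-3 replicates 1 and 2. On Con-3 replicate 3 they averaged 9.62, and on the tI-3 arrays 9.43 and 9.71. Con-3 replicate 3 also stood apart in the controls for 18S ribosomal RNA, where the probe set for the 3′ end read 11.38 against 6.59 to 7.67 on the other arrays. On tI-3 replicate 2 the 3′ controls for Actb (14.19) and Gapdh (13.57) were lower than on the other arrays (14.43 to 14.55 and 13.87 to 14.06). All Ind-8 arrays thus had low hybridization controls and both tI-3 arrays had high ones. A fit that takes this level as a block separates it from the line only through Con-3 replicate 3, and the calls of members and named list genes that ended with that block or without that array are pointed out.

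Genes that test the labels followed the p53 design. Trp53 read 5.68, 5.87 and 5.80 on the Ind-8 arrays, 5.21, 5.29 and 5.27 on Con-3, and 5.60 and 5.69 on tI-3. Both lines with the p53 cDNA were above every Con-3 array, and the log2 differences of 0.53 in A and 0.39 in C were called while that of 0.14 in B was not. The p53 targets Cdkn1a, a cell cycle inhibitor, Mdm2, the p53 ubiquitin ligase, and Ccng1 differed in all 3 comparisons. Cdkn1a differed by 3.81 in A, 2.22 in B and 1.59 in C, Mdm2 by 2.00, 1.28 and 0.72, and Ccng1 by 2.91, 1.24 and 1.67. Impdh2 read 12.16, 12.19 and 12.22 on Ind-8, 12.51, 12.56 and 12.53 on Con-3, and 12.34 and 12.38 on tI-3. Its levels on the tI-3 arrays thus lay between those of the other lines. Impdh2 was lower in A by a called log2 change of −0.34, and its differences of −0.17 in B and −0.17 in C were not called. Whether its probes read the cDNA is not stated in the sources. The zinc-responsive metallothionein Mt1 was not called in any comparison (0.14, 0.25 and −0.11), and Mt2 was called only in C (−0.39), a call that ended with that block and without Con-3 replicate 2 or tI-3 replicate 2 (limma adjusted p up to 0.217).

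The fibroblast identity was checked with markers. All 12 fibroblast markers were found, 2 of them (Thy1 and Lum) in the dimmest 25% of probe sets, and their summed level, as log2, ran from 15.30 to 15.77 over the 8 arrays. The brightest by its mean over the 8 arrays, the filament gene Vim, read 13.56 to 14.08. On both tI-3 arrays the marker S100a4 was brighter (14.11 and 13.71). Of the epithelial markers 4 of 5 were in the dimmest 25%, and the other, Krt8, read 4.01 to 5.03. Of the endothelial ones 3 of 4 were dim, of the blood ones 2 of 4, of the neural ones 2 of 4 and of the muscle ones 0 of 3. The brightest of these, again by the mean, were Kdr at 5.76 to 6.69, Cd3e at 5.28 to 5.88, Sox10 at 5.20 to 5.87 and Des at 5.83 to 6.33. Some of these markers were called too: Kdr in A (−0.32), B (−0.76) and C (0.44), Cd3e in B (−0.43), where 3 of 4 blood markers were lower, and in C (0.42), Sox10 in B (−0.48), and Tubb3 in B (0.39) and C (−0.52). With the hybridization-control level as a block, of these named calls only that of Tubb3 in C was kept. It ended without tI-3 replicate 1, where the difference was −0.42. No epithelial or muscle marker was called. Of the 12 fibroblast markers 2 were called higher and 1 lower in A, 6 and 1 in B, and 3 and 4 in C. In C the largest called rises were those of Thy1 (0.37) and Pdgfrb (0.33) and the largest falls those of Col3a1 (−2.68) and Col1a1 (−1.06); of these only the Col3a1 call held in every alternative fit, and that of Col1a1 ended without tI-3 replicate 1 (limma adjusted p 0.0518). In bulk cultures, fewer cells with a transcript and less of it per cell cannot be told apart.

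Promoter sequences are shown for Fos, Jun and Atf3, because these 3 members were all higher in Ind-8 than in tI-3 and each holds a match to a motif of the AP-1 and CREB families. RefSeq windows from 250 bases before to 50 after the start (GRCm38.p6, 300 bases) were used for 7 of the 10 members. No window of Egr1, Fosl1 or Myc was used, so the counts of member windows below say nothing of these genes. Capitals mark the match, read 5′ to 3′ along the gene. The Fos window is chr12:85473640-85473939 (+), that of Jun chr4:95052173-95052472 (−), and that of Atf3 chr1:191183284-191183583 (−).
Fos: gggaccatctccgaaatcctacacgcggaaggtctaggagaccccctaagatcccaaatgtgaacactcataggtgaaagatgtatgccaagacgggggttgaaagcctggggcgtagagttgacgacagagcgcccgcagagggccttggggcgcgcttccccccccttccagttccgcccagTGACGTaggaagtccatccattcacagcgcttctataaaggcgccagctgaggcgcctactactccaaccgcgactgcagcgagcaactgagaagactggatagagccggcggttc
Jun: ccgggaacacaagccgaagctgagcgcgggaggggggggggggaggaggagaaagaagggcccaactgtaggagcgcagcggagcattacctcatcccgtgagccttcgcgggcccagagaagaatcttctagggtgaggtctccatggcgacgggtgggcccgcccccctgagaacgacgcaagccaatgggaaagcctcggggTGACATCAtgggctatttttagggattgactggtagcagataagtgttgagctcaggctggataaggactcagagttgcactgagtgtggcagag
Atf3: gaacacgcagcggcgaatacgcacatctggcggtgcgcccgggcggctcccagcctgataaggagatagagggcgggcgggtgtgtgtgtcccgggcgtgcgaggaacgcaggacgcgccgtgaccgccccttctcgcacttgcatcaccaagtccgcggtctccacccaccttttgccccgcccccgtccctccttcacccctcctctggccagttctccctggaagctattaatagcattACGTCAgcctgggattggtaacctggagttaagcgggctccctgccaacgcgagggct
In Fos, TGACGT, the core of a cyclic AMP response element, begins 66 bases before the start. In Jun, TGACATCA, of the form TGACNTCA, begins 45 bases before it, and in Atf3 TGACGT lies on the other strand 8 bases before it. None of these overlaps another match. Both strands of all 32851 windows in the table were searched. TGACGT was found in 7.51% of them, TGACNTCA in 8.83%, the AP-1 motif TGANTCA in 7.81%, the MYC motif CACGTG in 7.15%, the EGR motif GCGNGGGCG in 5.55% and the CArG box of SRF in 1.63%. The EGR motif was in the windows of Fosb and Fosl2, beginning 50 and 79 bases before the start. The AP-1 and MYC motifs and the CArG box were in 0 of the 7 member windows, which says only that these letters are not in them. A match describes the letters and is no evidence of binding.

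Fos, the founding FOS protein and the member with the widest spread between lines, read 8.28, 9.47 and 9.28 on the Ind-8 arrays, 7.71, 7.81 and 8.19 on Con-3, and 7.82 and 6.70 on tI-3. Every Ind-8 array was above every other array, Ind-8 replicate 1 only narrowly, and the tI-3 arrays lay on both sides of Con-3 replicate 1. The means were 9.01 ± 0.64 (SD, n = 3) in Ind-8, 7.91 ± 0.26 (SD, n = 3) in Con-3 and 7.26 ± 0.79 (SD, n = 2) in tI-3. The order was Ind-8, Con-3, tI-3, and the last 2 overlapped.

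Fosl1, which encodes FRA-1, a FOS relative linked to growth and motility, read 10.00, 9.56 and 9.30 on Ind-8, 9.84, 9.42 and 9.42 on Con-3, and 10.65 and 10.39 on tI-3. Both tI-3 arrays were above all others, and the arrays of Ind-8 and Con-3 intermixed. Fosl2, which encodes FRA-2, read 7.99, 8.06 and 8.27 on Ind-8, 8.09, 8.05 and 7.80 on Con-3, and 8.62 and 8.66 on tI-3. It showed the same order, with tI-3 above the other lines and no separation between those. Fosb read between 3.74 and 4.16 on all 8 arrays, and its mean of 3.91 lay under 4.30, the 25th percentile of probe set means. The arrays of the 3 lines intermixed, so no order of Fosb levels could be read at this dim end.

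Jun, the main partner of FOS, read 10.09, 10.16 and 9.98 on Ind-8, 10.30, 10.17 and 10.00 on Con-3, and 9.72 and 9.35 on tI-3. Both tI-3 arrays were below all others, while Ind-8 and Con-3 overlapped. Junb, a JUN protein that can act against JUN on some promoters, read 9.75, 9.46 and 9.47 on Ind-8, 8.87, 8.85 and 8.73 on Con-3, and 9.41 and 8.95 on tI-3. No lines overlapped, and the order was Ind-8, tI-3, Con-3, with tI-3 replicate 1 close to the Ind-8 arrays and replicate 2 close to Con-3. Jund, the JUN protein least dependent on serum, read 4.89 to 5.17 on Ind-8, 5.02 to 5.24 on Con-3 and 5.33 to 5.38 on tI-3. The tI-3 arrays were the highest by a small margin, and the other lines overlapped.

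Atf3, a stress-induced factor that pairs with JUN proteins, read 7.30, 7.36 and 7.26 on Ind-8, 7.08, 7.27 and 7.33 on Con-3, and 6.81 and 6.63 on tI-3. The tI-3 arrays were below all others, as for Jun, and Ind-8 and Con-3 overlapped. Egr1, a zinc finger factor of the serum response, read 10.76, 11.11 and 10.62 on Ind-8, 9.99, 10.59 and 10.02 on Con-3, and 11.12 and 9.69 on tI-3. The highest and the lowest Egr1 values of all 8 arrays were both in tI-3, so that line overlapped the others, while Ind-8 lay just above Con-3. Myc read 10.41, 10.06 and 10.21 on Ind-8, 10.96, 10.59 and 10.76 on Con-3, and 10.08 and 9.67 on tI-3. All Con-3 arrays were above the rest, and tI-3 replicate 1 fell within the Ind-8 range.

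**Figure D1:**
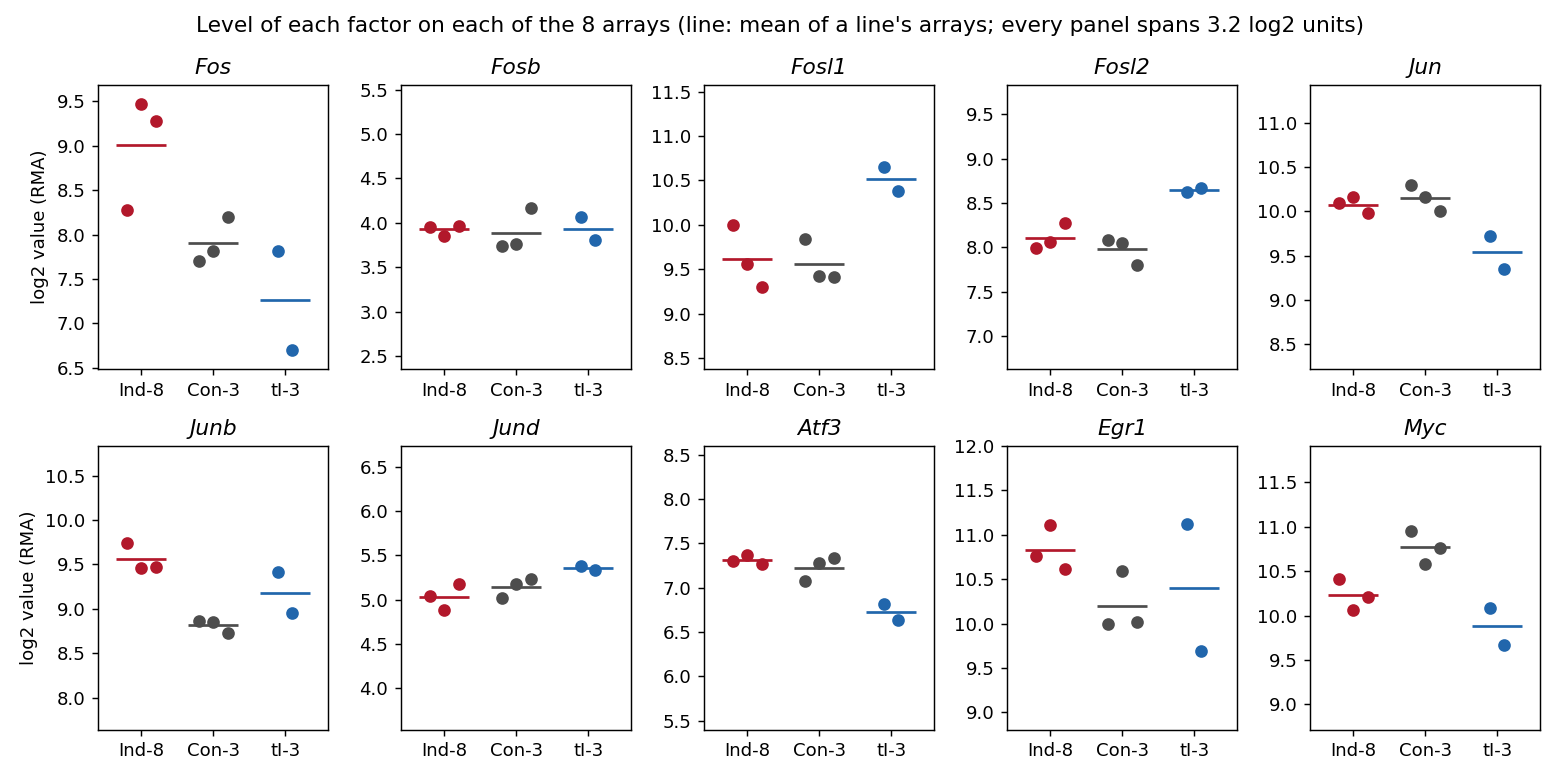
Log2 value of each of the 10 factors (vertical axis) on each of the 8 arrays, by line (horizontal axis), with points for arrays and a bar for the mean of a line; all panels span the same number of log2 units. Fos is highest on the 3 Ind-8 arrays, Fosl1 and Fosl2 on the 2 tI-3 arrays, Myc on the 3 Con-3 arrays, and Egr1 differs most between the 2 tI-3 arrays (11.12 and 9.69).

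The A comparison asked which factors differ between the p53-restored line that renews asymmetrically and the line without p53. Fos and Junb were higher in Ind-8 than in Con-3, Fos by 2.15-fold and Junb by 1.67-fold, and Myc was 1.45-fold lower. The other AP-1 genes showed no called difference: the log2 differences were 0.037 for Fosb, 0.058 for Fosl1, 0.13 for Fosl2, −0.078 for Jun, −0.11 for Jund and 0.081 for Atf3. Egr1 was higher by 0.63 (95% interval −0.052 to 1.32), with every Ind-8 array above every Con-3 array, and did not pass the test on all 8 arrays.

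In limma the Fos difference in A was 1.10 with SE 0.328, a 95% interval of 0.38 to 1.83 and an adjusted p of 0.0356, with 3 of 3 Ind-8 arrays above every Con-3 array. For Junb the difference was 0.74 with SE 0.131, an interval of 0.45 to 1.03 and a limma adjusted p of 0.00293, also with 3 of 3 arrays above. For Myc it was −0.54 with SE 0.141, an interval of −0.85 to −0.23 and a limma adjusted p of 0.0195, with 3 of 3 arrays below. Thus 3 of the 10 members were called, beside 21.9% of all probe sets, and a count of 3 among 10 is near that background. Those higher were 2, beside 10.9% of all probe sets, and 1 was lower, beside 11%. The median member difference was 0.070, beside −0.058 for all probe sets. The rank product test used by the study, at a percent false positive (pfp) under 0.05, called only Fos among the members (pfp 0.0238), beside 3.65% of all probe sets. The study's own list of genes associated with asymmetric self-renewal holds Fos and was chosen on these arrays, so its direction is no independent evidence.

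Of these calls, that of Junb held in all 17 alternative limma fits at the same threshold (0.65 to 0.79), though not in the rank product test. Here and below, an alternative is such a fit. In A, leaving out either tI-3 array gave the same result as fitting the 2 compared lines only. The hybridization block there matched the fit without Con-3 replicate 3, so the 17 are not all distinct. The Fos call ended without Con-3 replicate 1 (1.00), Con-3 replicate 2 (1.06), Ind-8 replicate 2 (0.87) or Ind-8 replicate 3 (0.97), with limma adjusted p from 0.0909 to 0.137, and held without Con-3 replicate 3 (1.25). The Myc call ended with the hybridization-control level as a block (−0.54) and without Con-3 replicate 1 (−0.45), Con-3 replicate 3 (−0.54), Ind-8 replicate 2 (−0.46) or Ind-8 replicate 3 (−0.53), with limma adjusted p from 0.0501 to 0.0805. Egr1 passed when either or both tI-3 arrays were left out of the fit, with the same difference of 0.63 and a limma adjusted p of 0.0372.

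The B comparison asked which factors differ between the p53-restored lines without and with the constitutive IMPDH II cDNA. Fos was 3.36-fold higher in Ind-8 than in tI-3, and Atf3 and Jun were 1.50-fold and 1.45-fold higher. Fosl1 and Fosl2 went the other way, 1.87-fold and 1.45-fold lower in Ind-8. Among the FOS transcripts, Fos thus differed in the opposite direction to Fosl1 and Fosl2. The log2 differences of 0.38 for Junb, −0.33 for Jund and 0.35 for Myc did not pass the test. Egr1 differed by 0.43 (95% interval −0.34 to 1.19) and Fosb by −0.0059. Without tI-3 replicate 2 the differences were 0.149 for Junb and 0.145 for Myc.

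For Fos the log2 difference in B was 1.75 with SE 0.366, an interval of 0.94 to 2.56 and a limma adjusted p of 0.00650, with 3 of 3 Ind-8 arrays above both tI-3 arrays. Fosl1 differed by −0.90 with SE 0.200, an interval of −1.34 to −0.46 and a limma adjusted p of 0.00790. Fosl2 differed by −0.53 with SE 0.122, an interval of −0.81 to −0.26 and a limma adjusted p of 0.00919. For Atf3 the difference was 0.58 with SE 0.110, an interval of 0.34 to 0.83 and a limma adjusted p of 0.00392, and for Jun 0.54 with SE 0.134, 0.24 to 0.84 and 0.0135. None of these 5 overlapped between Ind-8 and tI-3, but neither did Junb and Jund, which were not called. The share of all probe sets without overlap was not counted, so the separation does not set the called members apart. The called members make 5 of 10, beside 31.1% of all probe sets, with 3 higher, beside 15.6%, and 2 lower, beside 15.5%. The median member difference was 0.37, beside −0.061. The rank product test called only Fos (pfp 0.00623), beside 2.02% of all probe sets.

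Without tI-3 replicate 2 only 2 members were called in B: Fos (1.19), Fosl2 (−0.51) and Jun (0.35) were lost, with limma adjusted p from 0.0671 to 0.143. Without tI-3 replicate 1 the Fosl1 call was lost (−0.77, limma adjusted p 0.0623), while Junb (0.61, 0.0229) and Egr1 (1.14, 0.0170) passed. Jund passed without Con-3 replicate 1 (−0.33, limma adjusted p 0.0460) or Ind-8 replicate 3 (−0.40, 0.0364), with arrays centred on their median (−0.34, 0.0311) and among probe sets above the 25th percentile (−0.33, 0.0449). With the replicate number as a block Junb, Jund and Myc passed. With the hybridization-control level as a block only Fosl2 was called, and the differences were 2.18 for Fos, −1.12 for Fosl1, 0.31 for Jun and 0.74 for Atf3 (limma adjusted p from 0.0601 to 0.477). All probe sets called in B fell from 7009 to 708 with that block. The part of this level in the B calls was not tested further.

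The C comparison asked which factors differ between the p53-restored line with constitutive IMPDH II and the line without p53. Fosl1 and Fosl2 were 1.95-fold and 1.58-fold higher in tI-3 than in Con-3. Myc was 1.85-fold lower, Jun 1.53-fold and Atf3 1.42-fold lower. Fos, called in A and B, differed in C by −0.65 (95% interval −1.46 to 0.17) and was not called; it was −1.20 without tI-3 replicate 1 and −0.090 without replicate 2, not called either way. Junb, Jund, Egr1 and Fosb differed by 0.36, 0.21, 0.20 and 0.043 without passing. Without tI-3 replicate 1 the Junb difference was 0.13.

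Fosl1 differed in C by 0.96 with SE 0.200, an interval of 0.52 to 1.40 and a limma adjusted p of 0.00583. Fosl2 followed with 0.66, SE 0.122, 0.39 to 0.94 and a limma adjusted p of 0.00306. On the lower side, Myc differed by −0.89 with SE 0.157, −1.24 to −0.54 and a limma adjusted p of 0.00243. In each of the 3 cases both tI-3 arrays lay beyond all Con-3 arrays. Jun differed by −0.62 with SE 0.134, −0.91 to −0.32 and a limma adjusted p of 0.00734, and Atf3 by −0.50 with SE 0.110, −0.75 to −0.26 and 0.00757. Both tI-3 arrays were again below all Con-3 arrays. For Junb and Jund, which were not called, the tI-3 arrays also lay beyond all Con-3 arrays, on the higher side. The called members were 5 of 10, beside 25.4% of all probe sets, with 2 higher, beside 10.2%, and 3 lower, beside 15.1%. The median member difference was 0.12, beside 0.036. The rank product test called 0 members in C, beside 2.31% of all probe sets.

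The Fosl2 and Myc calls in C held in all 17 alternative fits (0.57 to 0.85 and −1.10 to −0.69), but not in the rank product test, and all 5 calls held without Con-3 replicate 3. The Fosl1 call ended without tI-3 replicate 1 (0.83, limma adjusted p 0.0551), and those of Jun (−0.43, 0.0876) and Atf3 (−0.41, 0.0804) without tI-3 replicate 2, where Junb (0.59, 0.0311) and Egr1 (0.92, 0.0447) passed. Junb also passed with the arrays quantile-normalized again (0.45, 0.0320). Egr1 turned to −0.51 without tI-3 replicate 1. Within the arrays of high hybridization controls, which are Con-3 replicate 3 and both tI-3 arrays, Jun differed by −0.46 and Atf3 by −0.61. That set holds only 1 Con-3 array, so it cannot decide whether these calls hold. With the hybridization-control level as a block the Jun call was lost (limma adjusted p 0.114) and the Atf3 call was kept.

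**Figure D2:**
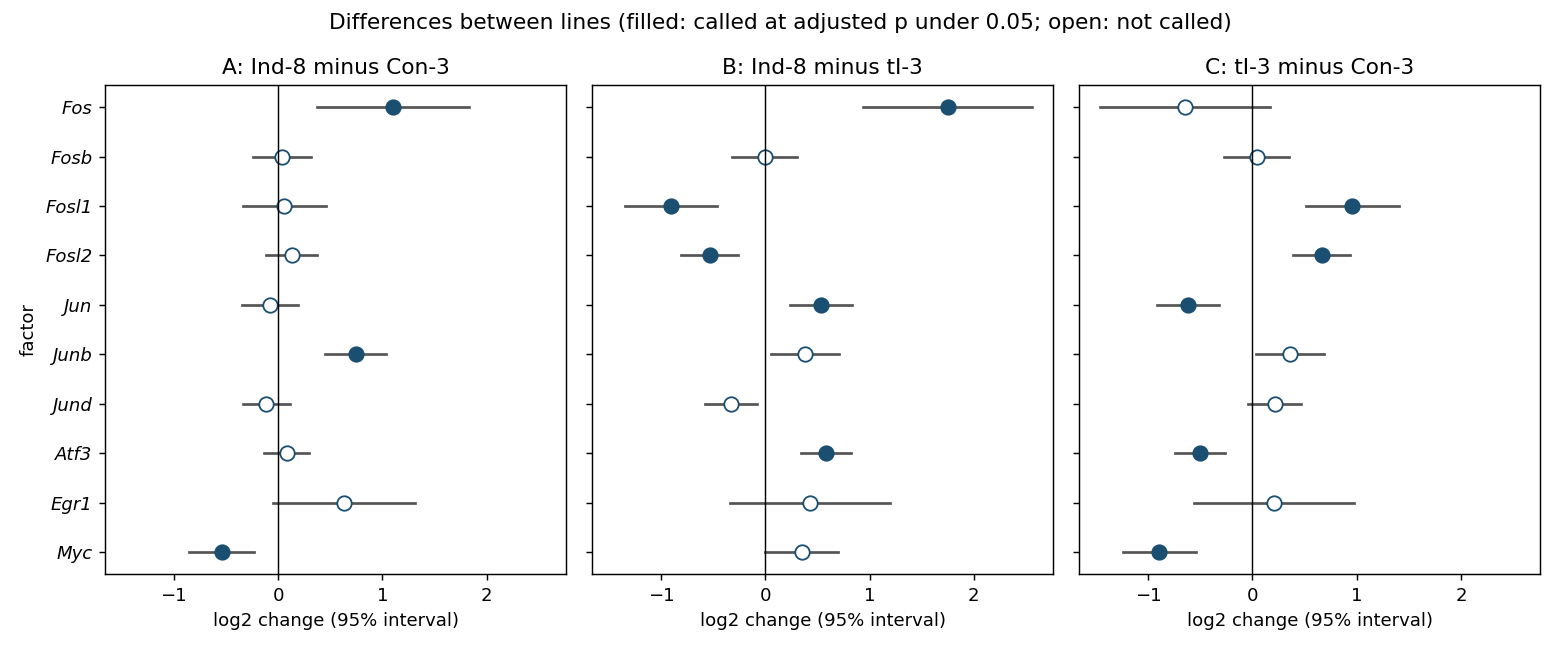
Log2 difference (horizontal axis, with its 95% interval) of each of the 10 factors (vertical axis) in the A, B and C comparisons; filled points were called by limma at an adjusted p under 0.05 and open points were not. Fos lies right of 0 in A (1.10) and B (1.75), Fosl1 and Fosl2 lie left of 0 in B and right in C, and Myc lies left in A (−0.54) and C (−0.89).

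The difference between the 2 tI-3 arrays was itself wide for some members. Replicate 1 was above replicate 2 for 9 of the 10 members, by a median of 0.32 and by 1.43 for Egr1, 1.11 for Fos and 0.46 for Junb; Fosl2 was the exception (−0.042). Among all probe sets 54.8% were higher on replicate 1, with a median of 0.023. Of the 28 other immediate-early genes 15 were higher on replicate 1, with a median of 0.051 and a range of −0.38 to 0.49, and the difference between the 2 sets was not tested. The gap for Egr1 exceeded that of 99.99% of all probe sets in tI-3, and that of Fos 99.8%. In Ind-8, where replicate 2 was above replicate 1 by 1.19 for Fos, the range of Fos exceeded 99.7% of probe sets, but only 5 of the 10 members were higher on replicate 2. Fos and Egr1 thus entered the comparisons with a larger spread between replicates than most transcripts, while other members, such as Atf3 and Fosb in Ind-8 and Fosl2 and Jund in tI-3, lay below the median spread of their line.

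**Figure D3:**
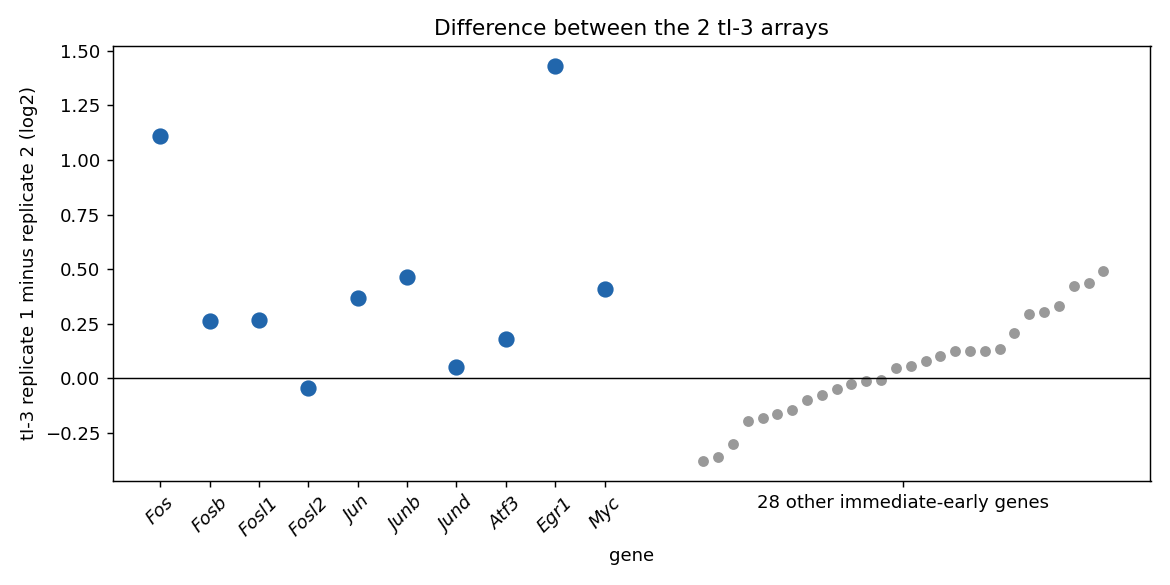
Log2 difference between tI-3 replicate 1 and replicate 2 (vertical axis) for the 10 members (large points, named) and the 28 other immediate-early genes (small points, sorted). Egr1 (1.43) and Fos (1.11) lie above all other points, and the small points spread on both sides of 0 from −0.38 to 0.49.

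Genes that work upstream, beside and downstream of the factors were counted from lists. A gene with several rows counted once, by its brightest row. By the rule for names, the 2 largest called rises and falls of each list in each comparison are named, apart from a few left out of the text but kept in the counts; other genes in the counts that follow were chosen after their values were seen. All values are log2 differences with their SE. Since the hybridization-control block left 708 calls in B, list counts in B are given with it too. Of the list genes named below, Nab1, Fgfr1, Pdgfra, Met, Timp1 and Ddit4 kept their calls in B with that block and the others named by the rule lost theirs. In A the calls of Zfp36l1, Dusp6, Mxd4, Mlxip and Ccnd2 ended with it, as they did without Con-3 replicate 3. In C those of Nr4a1, Egr4, Maff, Mafg, Nab2, Mlxip and Cebpb ended with it.

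Growth factor receptors and the RAS-ERK, JNK and p38 kinases carry the signals that induce the members; 22 of 23 genes were found. Fgfr1, an FGF receptor, rose in Ind-8 over Con-3 by 0.67 ± 0.124 (SE) and over tI-3 by 1.57 ± 0.139. Pdgfra, a PDGF receptor, differed by 1.51 ± 0.190 in B and −1.04 ± 0.190 in C, with its lowest mean in tI-3. Met, the HGF receptor, read 9.05 and 9.22 on tI-3, 8.14 to 8.20 on Ind-8 and 8.21 to 8.25 on Con-3. The tI-3 arrays stood clear of the rest, and Met differed by −0.95 in B and 0.91 in C. The other PDGF receptor gene, Pdgfrb, rose by 0.38 in A. Among the kinases, the p38 activator Map2k6 was lower in A (−0.67) and in C (−1.01), p38α (Mapk14) in A (−0.34), and JNK1 (Mapk8) in B (−0.46). In A 5 genes were higher and 3 lower, in B 8 and 2, and in C 3 and 6. The medians were 0.12, 0.13 and −0.092, beside −0.058, −0.061 and 0.036 for all probe sets. Without Con-3 replicate 3 the counts in A were 3 and 2, and in C 2 and 4. The higher count dropped to 2 in A without Ind-8 replicate 2 and to 2 in B without tI-3 replicate 1, and in B it was also 2 with the hybridization block, where the lower count was 1. For the lower genes, the count was 1 in A without Con-3 replicate 1, Ind-8 replicate 2 or Ind-8 replicate 3, and 3 in C without either tI-3 array. The Fgfr1, Met and Pdgfra calls in B held in all 16 alternatives, as did Fgfr1 in A and Met and Map2k6 in C in all 17. Mapk14 in A lost its call without Con-3 replicate 1, Ind-8 replicate 2 or Ind-8 replicate 3 (limma adjusted p up to 0.0977). The rows of Egfr and Hras disagreed in their calls.

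ERK feedback inhibitors, whose transcripts rise with ERK activity, had 7 of 10 genes found. Dusp6, a phosphatase that acts on ERK, read 11.73, 11.51 and 10.92 on Ind-8, 10.89, 10.35 and 10.17 on Con-3, and 10.43 and 9.66 on tI-3. Every Ind-8 array was above every other array. It was the only gene of this list called, at 0.92 ± 0.257 in A and 1.35 ± 0.287 in B, and in C limma called 0 of 7. The list medians were 0.0013, −0.037 and −0.025. The higher count in B was 2 without Ind-8 replicate 3. With the replicate number as a block B had 2 higher and 1 lower, and C had 0 higher and 1 lower. In A the Dusp6 call ended without Con-3 replicate 2, Con-3 replicate 3, Ind-8 replicate 1 or Ind-8 replicate 2 (limma adjusted p up to 0.103), and in B without tI-3 replicate 2 and with the hybridization block (up to 0.348).

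Of the EGR corepressors and the SRF and TCF factors that drive Egr1 and Fos transcription, all 8 genes were found. The SRF coactivator Mrtfa read 10.56, 9.91 and 10.26 on Ind-8, 9.34, 9.38 and 9.28 on Con-3, and 8.91 and 9.16 on tI-3. Ind-8 was above both other lines, by 0.90 ± 0.148 in A and 1.21 ± 0.166 in B, and the list the study chose on these arrays holds it. Its relative Mrtfb rose by 0.51 in A and by 0.64 in C, though its rows disagreed in their calls. Nab2, a corepressor that EGR1 itself induces, differed by 1.03 ± 0.145 in B and −0.66 in C, whereas Nab1 went the other way, with −0.60 in B and 0.54 in C. Srf was lower in C (−0.80 ± 0.133) and the TCF gene Elk4 in B (−0.43). In A 3 genes were higher (Elk1 beside the Mrtf genes) and 0 lower, in B 4 higher (Srf and Elk3 beside Mrtfa and Nab2) and 2 lower, and in C 3 higher (Elk4 beside Mrtfb and Nab1) and 2 lower. The medians were 0.38, 0.37 and 0.062. The calls of Mrtfa in A, Mrtfb and Srf in C held in all 17 alternatives. The higher count in B dropped to 2 without Ind-8 replicate 1 or either tI-3 array, and the lower count in B to 0 without tI-3 replicate 2. In C the higher count dropped to 1 without either tI-3 array and the lower count to 1 without tI-3 replicate 2. Under the hybridization block B had 0 higher and 1 lower.

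Of the AP-1 and CREB partners outside the members, 15 of 16 genes were found. Nfe2l2, the oxidative stress factor NRF2, rose by 0.82 ± 0.124 in A and 0.72 ± 0.138 in C, with Ind-8 at 9.77 to 10.26, tI-3 at 9.87 to 10.02 and Con-3 at 9.14 to 9.28. Both p53-restored lines thus lay above Con-3. Mafg was lower in A (−0.38) and in C (−0.39). Batf2 and Batf were lower in B (−0.39 and −0.34). The counts were 2 higher and 1 lower in A, 0 and 2 in B, and 1 and 1 in C, with medians of −0.056, 0.016 and 0.088. The Nfe2l2 calls held in all 17 alternatives. Mafg lost its call in A without Con-3 replicate 2, Ind-8 replicate 2 or Ind-8 replicate 3 (limma adjusted p up to 0.0628) and in C without Con-3 replicate 2 or either tI-3 array (up to 0.0972). Batf and Batf2 lost theirs in B without Ind-8 replicate 1, Ind-8 replicate 2 or either tI-3 array (up to 0.148). B had 0 calls under the hybridization block. The rows of Crem disagreed.

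The 28 other immediate-early genes, which answer the same signals as Fos and Egr1, were all found. Btg2, an antiproliferative p53 target, read 8.08, 9.27 and 8.80 on Ind-8, 6.17, 6.45 and 6.34 on Con-3, and 7.24 and 6.80 on tI-3. The lines did not overlap, and Btg2 differed by 2.39 ± 0.247 in A and 1.69 ± 0.276 in B. The nuclear receptor Nr4a1 rose by 1.63 ± 0.140 in A and 0.54 ± 0.156 in C. Egr2, a relative of Egr1, read 6.91, 7.38 and 5.89 on Ind-8, 5.59, 5.25 and 4.93 on Con-3, and 5.49 and 5.00 on tI-3. Here too Ind-8 was above the rest, by 1.48 ± 0.358 in B. The study's list chosen on these arrays holds Btg2 and Egr2. Egr4 ran the other way, −0.74 in B and 0.53 in C, and Nr4a3 was lower in B (−0.39). Ccn2, a matrix protein gene, was lower in C (−1.10 ± 0.157), as was Maff (−0.54). In A the RNA-binding protein gene Zfp36l1 (−0.78) and the kinase gene Pim1 (−0.52) were lower. Without Ind-8 replicate 1 the Zfp36l1 difference was −0.43. The counts were 8 higher and 2 lower in A, 10 and 3 (with Pim1) in B, and 3 (with Nr4a3) and 4 (with Gadd45b and Dusp1) in C. The medians were 0.25, 0.27 and −0.013, beside −0.058, −0.061 and 0.036 for all probe sets.

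In that list the calls of Btg2, Nr4a1 and Pim1 in A and of Ccn2 in C held in all 17 alternatives. Without Con-3 replicate 3 the counts were 6 higher and 1 lower in A and 1 and 4 in C. Without Ind-8 replicate 1 the counts in C were 5 and 5. Without tI-3 replicate 2 they were 6 and 0 in B, and the higher count in C was 0, while without tI-3 replicate 1 the lower count in C was 2. B had 1 and 0 when the hybridization level was a block. The lower count in A was also 1 without Con-3 replicate 1, Con-3 replicate 2, Ind-8 replicate 1 or either tI-3 array, each of which ended the Zfp36l1 call (limma adjusted p up to 0.148). Nr4a1 in C lost its call without Con-3 replicate 2, Con-3 replicate 3 or either tI-3 array (up to 0.123), Egr4 in C without Con-3 replicate 1, Con-3 replicate 3 or tI-3 replicate 2 (up to 0.289) and Maff in C without Con-3 replicate 1 or either tI-3 array (up to 0.129). Egr2 and Egr4 in B lost theirs without tI-3 replicate 2 (limma adjusted p up to 0.113), and Nr4a3 without Ind-8 replicate 1 or tI-3 replicate 2 (up to 0.182).

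Among 16 AP-1 target genes, all found, 2 of the 4 matrix metalloproteinases had the largest differences in C. The collagenase gene Mmp13 read 7.97, 6.87 and 5.38 on Ind-8, 6.29, 4.20 and 3.89 on Con-3, and 10.08 and 9.32 on tI-3. The tI-3 arrays were far above both other lines, which overlapped and spread widely. Mmp13 differed by −2.96 ± 0.762 in B and 4.91 ± 0.762 in C, and the stromelysin gene Mmp3 by −1.40 ± 0.262 in B and 2.13 ± 0.262 in C. Mmp10 was called only in C (0.43) and Mmp9 in no comparison. Timp1, an inhibitor of these enzymes, went the other way, with 1.24 ± 0.109 in B and −0.86 ± 0.109 in C. Hmox1, heme oxygenase, read 11.77, 11.66 and 10.98 on Ind-8, 9.54, 9.11 and 8.98 on Con-3, and 10.24 and 10.04 on tI-3. No lines overlapped, and it rose by 2.25 ± 0.204 in A and was higher by 1.33 ± 0.229 in B; it too is in the list the study chose on these arrays. The secreted matrix protein gene Spp1 rose by 1.04 ± 0.221 in A. The counts were 6 higher and 0 lower in A, 4 (with Cd44 and Plau) and 3 (with Hbegf) in B, and 6 and 1 in C, with medians of 0.35, −0.060 and 0.20. The calls of Mmp13, Mmp3 and Timp1 in C, of Timp1 in B and of Hmox1 and Spp1 in A held in every alternative. Without Con-3 replicate 2 or 3 the higher count in A was 2, and without either tI-3 array that in C was 3. Mmp13 lost its call in B without either tI-3 array (limma adjusted p up to 0.0955), and the lower count in B dropped to 1 without tI-3 replicate 1. The hybridization block left 1 and 0 in B.

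The MYC network, in which MAX and the MXD, MNT and MLX proteins compete with or join MYC, had all 12 genes found. The MYC antagonist gene Mxd4 rose by 0.84 ± 0.261 in A, and Mxi1 (−0.48) and Mlxip (−0.38) were lower. Mxd3 was lower in B (−0.47) and Mlxip in C (−0.48). The counts were 1 higher and 2 lower in A, 0 and 1 in B, and 0 and 1 in C, with medians of −0.099, −0.070 and −0.10. The Mxi1 call held in all 17 alternatives. Mxd4 lost its call without any 1 of the Con-3 arrays, Ind-8 replicate 2 or Ind-8 replicate 3 (limma adjusted p up to 0.159), Mlxip in A without Con-3 replicate 2, Con-3 replicate 3 or Ind-8 replicate 2 (up to 0.0862) and in C without tI-3 replicate 1 (0.0877), and Mxd3 without tI-3 replicate 1 (0.106). With the hybridization block there were 0 calls in B and 0 in C.

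MYC target genes, which serve ribosome, polyamine and nucleotide synthesis, were found for 19 of 25. Srm, spermidine synthase, read 10.77, 10.38 and 10.78 on Ind-8, 11.39, 11.43 and 11.49 on Con-3, and 9.97 and 9.98 on tI-3. The order was Con-3, Ind-8, tI-3 with no overlap, and Srm differed by 0.67 ± 0.127 in B and −1.47 ± 0.127 in C. Pa2g4, a proliferation-associated protein gene, was lower in C (−1.10 ± 0.126) and Nolc1, a nucleolar protein gene, in A (−0.83 ± 0.115). Tfrc, the transferrin receptor, read 7.13, 7.51 and 7.90 on Ind-8 against 8.34 to 9.10 on the other 5 arrays. It was lowest in Ind-8, with −1.22 ± 0.211 in A and −1.27 ± 0.236 in B, and the study holds it in the list chosen on these arrays. Cyclin D2 (Ccnd2) was higher in A by 0.68 and in B by 0.93, while Nop56 was lower in B (−0.49). The counts were 1 higher and 9 lower in A, 4 (with Prdx3 and Pa2g4) and 2 in B, and 0 and 8 in C. The list medians were −0.27, 0.10 and −0.26, beside −0.058, −0.061 and 0.036 for all probe sets. The calls of Tfrc and Nolc1 in A and of Srm and Pa2g4 in C held in all 17 alternatives. The lower count was 6 in A without Con-3 replicate 3 or Ind-8 replicate 2, and 6 in C without Con-3 replicate 3 or either tI-3 array. Ccnd2 in A lost its call without any 1 of the Con-3 arrays, Ind-8 replicate 2 or Ind-8 replicate 3 (limma adjusted p up to 0.0831), and Ccnd2 and Nop56 in B without tI-3 replicate 2 (up to 0.0749). In B the higher count was 2 without either tI-3 array and 6 without Ind-8 replicate 2, and the lower count was 3 without Con-3 replicate 3 and 1 without tI-3 replicate 2. With the hybridization block B had 0 and 0, and the lower count in C was 5.

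Among 16 integrated stress response genes, the setting in which ATF3 acts downstream of ATF4, all were found and the directions were mixed. Ddit4, an inhibitor of mTOR signalling, read 10.87, 10.67 and 10.36 on Ind-8, 9.06, 9.35 and 9.12 on Con-3, and 9.42 and 9.03 on tI-3. Ind-8 was above both other lines by 1.45 ± 0.149 in A and 1.41 ± 0.167 in B, and this gene is in the study's list. Asns, asparagine synthetase, was lower in A (−0.83 ± 0.130) and C (−0.63), and Cebpg in A (−0.39), while Cebpb rose by 0.48 in A and 0.63 in C. The cystine transporter gene Slc7a11 was highest in tI-3, with −1.13 ± 0.240 in B and 1.50 ± 0.240 in C. Sesn2 was higher in B by 1.09 and Chac1 was lower in C (−0.93). The counts were 3 higher (with Ppp1r15a) and 2 lower in A, 4 (with Xbp1 and Chac1) and 1 in B, and 2 and 4 (with Xbp1 and Cebpg) in C, with medians of 0.038, 0.11 and −0.12. Ddit4 in A and B, Asns and Cebpg in A and Slc7a11 and Chac1 in C held in every alternative. Cebpb lost its call in A without Con-3 replicate 1 and in C without tI-3 replicate 1 (limma adjusted p up to 0.0520), Sesn2 without Ind-8 replicate 2 or tI-3 replicate 1 (up to 0.129), Slc7a11 in B without tI-3 replicate 1 (0.0594) and Asns in C without tI-3 replicate 2 (0.0963). Without tI-3 replicate 2 the higher count in B was 2 and the lower count in C was 1. Under the hybridization block B had 1 and 0.

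**Figure D4:**
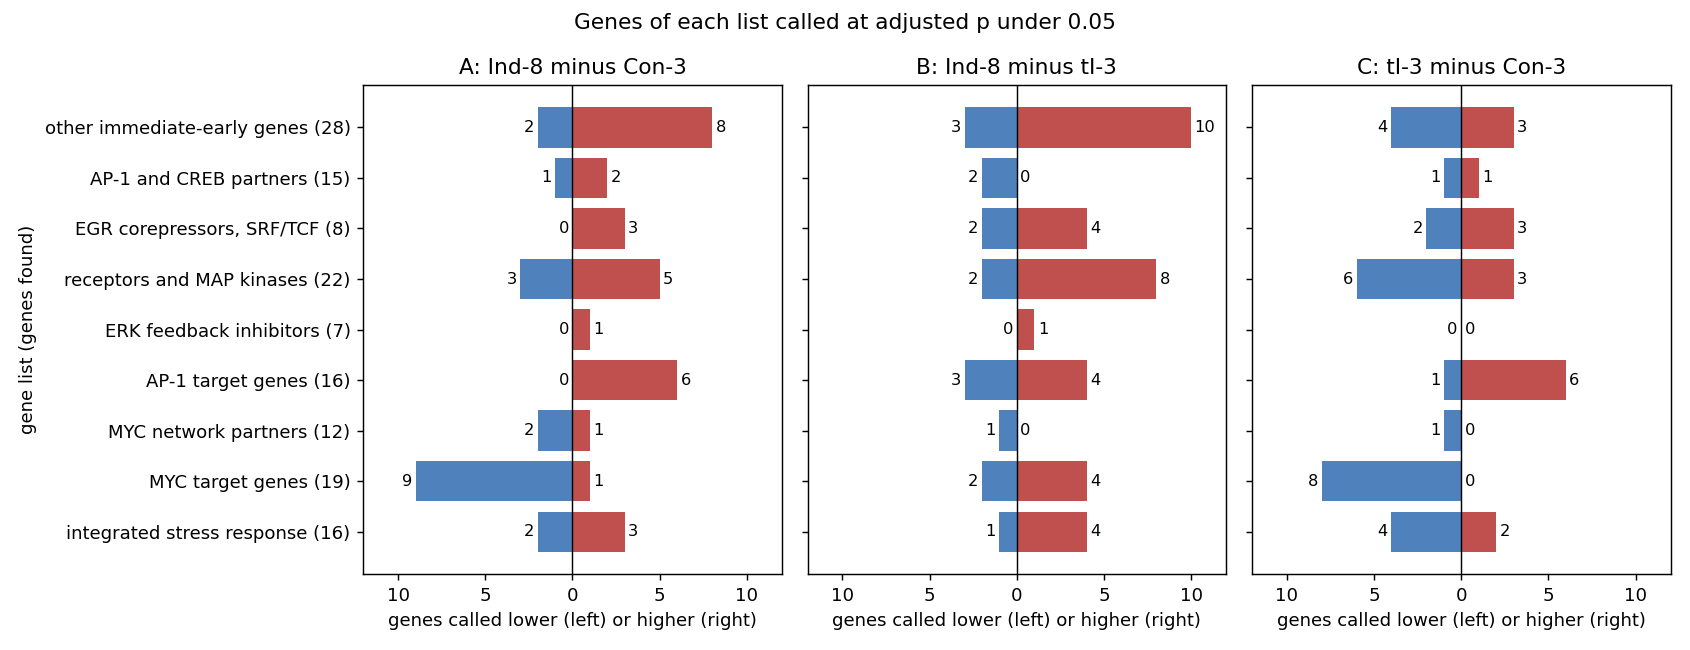
Genes of each list (vertical axis, with the number found) called higher (right, red) or lower (left, blue) by limma in the A, B and C comparisons; the horizontal axis is the number of genes. Of the 28 other immediate-early genes 8 were called higher and 2 lower in A and 10 and 3 in B, and of the 19 MYC target genes 1 higher and 9 lower in A and 0 and 8 in C. Of all probe sets 10.9% were called higher and 11% lower in A, 15.6% and 15.5% in B, and 10.2% and 15.1% in C; no list was tested against these shares.

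The genes nearest in pattern to Fos, Egr1 and Myc were taken by the root mean square (RMS) difference over the 8 arrays, after the mean of each gene was taken off. For Fos they were Mfap5 (0.208 log2 units), Tmem119 (0.266), Cbr2 (0.343), Mustn1 (0.350) and Papss2 (0.365), all highest on Ind-8 replicates 2 and 3 and lowest or next to lowest on tI-3 replicate 2. For Myc they were Mthfd2l (0.0849), Luc7l (0.105), Mfsd2a (0.108), Pithd1 (0.109) and Tsr1 (0.110), with smaller RMS differences than any gene had to Fos. The RMS difference is not scaled to the spread of a gene. Fos ran from 6.70 to 9.47 over the arrays and Myc only from 9.67 to 10.96, so these sizes do not rank how well the patterns match. The nearest to Egr1 was Mxd4 (0.205), which the MYC network list also holds, followed by Tmem170 (0.240), Gnptg (0.250), Tceal1 (0.265) and Ccdc181 (0.283). Mxd4 read 6.69 on tI-3 replicate 1 and 5.52 on replicate 2, so it differed between those arrays in the same direction as Egr1. The nearest genes were chosen on these same arrays, so the shared direction is no separate evidence.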

How the data were processed

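RNA of 8 cultures (3 Ind-8, 3 Con-3, 2 tI-3) was measured on Affymetrix mouse genome arrays. The authors ran RMA with a custom chip description file (version 12) that groups probes by RefSeq transcript, and deposited log2 intensities, background-corrected and quantile-normalized. Of 22587 deposited probe sets, 64 controls were set aside and 22523 tested. Names came from a RefSeq table (GRCm38.p6), which matched 18294 (81.2%) to 15653 genes. The 3 line means were estimated from all 8 arrays by limma 3.58.1 (R 4.3.3, default prior), p-values were adjusted by Benjamini-Hochberg across the 22523 tested probe sets, and calls were made at an adjusted p under 0.05. The scripts were tested on simulated data. Python 3.11.15, numpy 2.4.6, pandas 2.3.3 and matplotlib 3.10.9 served for the rank product test (re-implemented, 100 permutations within each array), counts and figures. An array has no sequencing depth, so the number of arrays limits the precision. Alternatives were each array left out, the compared lines only, a replicate block, a block or subset by the level of the hybridization controls, arrays centred or quantile-normalized again, a trend in the prior, a filter at the 25th percentile, distinct profiles once, the dimmest row of a gene, stricter thresholds and the rank product. Where a tI-3 array was left out, the remaining one was assumed to vary like the other lines.

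The members and gene lists were chosen with earlier results of these data known. The rule for named genes takes all members, the genes that test the labels, the 2 largest called rises and falls of each list in each comparison, and the 5 named genes nearest in pattern to Fos, Egr1 and Myc among probe sets above the 25th percentile. Listed genes with no match in the table were not analysed: Atf7, Mapk3, Dusp4, Dusp5, Spred1, Npm1, Ldha, Fbl, Hspd1, Pcna, Ddx18 and Cd68.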

Additional observations from a re-analysis of the deposited data

Results flagged for a closer look

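For 5 factors the change from Con-3 differed between the p53-restored lines, by limma's test of that difference itself, which is the B comparison at an adjusted p under 0.05. Fos differed from Con-3 by 1.10 in Ind-8 and by −0.65 in tI-3, a difference between the changes of 1.75 on the log2 scale; the tI-3 value was −1.20 without its replicate 1 and −0.090 without its replicate 2, where the difference no longer passed. Fosl1 and Fosl2 had larger changes in tI-3 (0.96 and 0.66) than in Ind-8 (0.058 and 0.13), with differences of −0.90 and −0.53. Jun and Atf3 were lower in tI-3 (−0.62 and −0.50) and near Con-3 in Ind-8 (−0.078 and 0.081), with differences of 0.54 and 0.58. With the hybridization-control level as a block only the Fosl2 difference passed. The Fosl2 and Jun differences no longer passed without tI-3 replicate 2, nor that of Fosl1 without tI-3 replicate 1.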

How the results depend on the processing

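Fosl2 and Myc in C and Junb in A kept their direction and call in all 17 alternative limma fits at the same threshold, but the rank product and a log2 change of at least 1 did not call them. Over member differences and settings, 440 kept direction and side of the threshold, 23 lost and 15 gained a call, and 19 changed sign. The sign changes fell on Fosl1, Fosb and Egr1, in comparisons where they were not called: Fosl1 in A was −0.013 with the hybridization block and within the low set, and −0.13 to 0.22 with 1 array left out. Fosb was 0.41 in B and −0.23 in C with that block, 0.15 and −0.031 quantile-normalized again, and −0.23 in C within the high set. With 1 array left out Fosb ran from −0.037 to 0.17 in A, −0.14 to 0.13 in B and −0.089 to 0.18 in C, and Egr1 from −0.29 to 1.14 in B and −0.51 to 0.92 in C. Members called with 1 array left out were 1 to 4 in A, 2 to 6 in B and 4 to 5 in C, and probe sets 3493 to 4637, 2781 to 7261 and 3093 to 5625. With the hybridization block B had 1 member and 708 probe sets, and C 3066 probe sets. Within the low set A had 2968 probe sets, and within the high set C had 3 members and 2260 probe sets. At an adjusted p under 0.01 A had 1 member, and probe sets were 2718, 3273 and 3129. With a log2 change of at least 1, members were 1, 1 and 0 and probe sets 464, 681 and 735. The rank product called 1, 1 and 0 members and 822, 455 and 520 probe sets. Stricter thresholds and fewer arrays lower counts by construction, and otherwise the cause was not tested. The replicate numbers did not pair the arrays throughout: deviations of the 7 same-number pairs correlated at −0.225 to 0.381. Not every array correlated best with its own number. A partial pairing, as between Ind-8 and Con-3 replicates 3 (0.381), was not tested further. With the replicate block 3, 8 and 5 members and 5382, 8341 and 6376 probe sets were called, adding Junb, Jund and Myc in B (limma adjusted p 0.0249, 0.0248 and 0.0204) and changing no other member call. Signal near background limits Fosb.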
